A study of Rattus norvegicus with 32 samples.

Results

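Fkbp5, Tsc22d3, Sgk1, Ddit4 and Cebpd are genes that glucocorticoid hormones are known to raise, and they are described here in rat gastrocnemius muscle across 2 genotypes and 2 temperatures. They are 5 of 6 genes named for this purpose, taken by gene symbol from a deposited table of 12901 genes. The sixth, Nr3c1, which encodes the glucocorticoid receptor itself, is not analysed here. All 5 passed the filter on low counts. Their Ensembl gene identifiers are ENSRNOG00000022523 for Fkbp5, ENSRNOG00000056135 for Tsc22d3, ENSRNOG00000011815 for Sgk1, ENSRNOG00000057078 for Ddit4 and ENSRNOG00000050869 for Cebpd.

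Glucocorticoids, chiefly corticosterone in the rat, enter cells and bind a receptor that chaperones hold in the cytoplasm; the loaded receptor moves to the nucleus and binds response elements near its target genes. In skeletal muscle these hormones are known for restraining growth, promoting protein breakdown and changing fuel use, and their secretion follows the time of day and rises in stress. Each of the 5 genes also answers other signals, so their levels are not a measure of the hormone.

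Expression was measured by 3′ RNA sequencing of whole gastrocnemius, a calf muscle, in male rats 20 weeks of age that were fed chow, per the labels and the series title. The 4 groups were control rats at room temperature (7 libraries), control rats after 2 weeks at 4 °C (7), rats with a knockout of Ucp1, the gene for the uncoupling protein of brown fat, at room temperature (9), and knockout rats after 2 weeks at 4 °C (9). The labels call the control animals both control and wild-type, give neither the strain nor the knocked-out allele, and do not state the time of day, a hormone level or whether the same animals gave the samples before and after cold. The targeted gene is not analysed here, so the knockout was not checked in these libraries.

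Library totals were 7275508 to 25846976 counts, and levels are given as CPM, the count relative to a library total corrected for composition. All 10 muscle fibre markers, such as Acta1 and Ckm, were present in every group. In these bulk samples fewer cells of a type and less RNA per cell cannot be told apart. Libraries 2 and 3 of the control rats and libraries KO8 and KO10 of the knockout rats, all at room temperature, were lowest in an index of 76 transcripts that were low in KO10, defined after the data were seen. The index was 2.63 to 3.32 (mean log2 CPM) in these 4, and control library 6 at room temperature was next at 3.59, so that control library 3 lay near others of its group. The index was 2.64 to 4.69 in control rats at room temperature and 5.20 to 5.53 after cold, so that there it moved with the cold. In knockout rats it was 2.63 to 5.52 at room temperature and 4.97 to 5.70 after cold. The medians of the knockout groups were 5.31 and 5.34, and the low values at room temperature were those of KO8 and KO10. The part of the index was not tested beyond the fits without the 4 lowest libraries and with the index as a covariate. These fits are given below where they change a call. In control rats the index did not overlap between the temperatures, so there the covariate fit cannot separate the cold from the index. At room temperature only KO8 and KO10 of the knockout libraries lay below the highest control library, at 4.69, and KO14 was next at 5.04. There the covariate fit cannot cleanly separate the genotype from the index. Calls lost in that fit in control rats, or between the genotypes at room temperature, are given without a conclusion.

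Fkbp5 and Ddit4 were the genes on which the cold comparisons turned, and their promoter sequences are shown so that the letters near each start site can be read beside the values. The windows are the 250 bases before the RefSeq start site on the GRCr8 build, printed 5′ to 3′ on the strand of the gene, which is the minus strand of chromosome 20 for both. Capitals mark GC boxes (GGGCGG or CCGCCC) and CCAAT boxes (CCAAT or ATTGG) found on either strand. The Fkbp5 window is chr20:6543556-6543805 and the Ddit4 window is chr20:28437038-28437287.
Fkbp5: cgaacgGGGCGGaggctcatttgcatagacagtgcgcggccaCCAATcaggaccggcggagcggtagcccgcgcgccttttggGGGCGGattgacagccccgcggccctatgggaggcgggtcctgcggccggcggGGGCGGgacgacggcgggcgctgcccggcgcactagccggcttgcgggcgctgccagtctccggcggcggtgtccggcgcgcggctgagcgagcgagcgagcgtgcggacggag
Ddit4: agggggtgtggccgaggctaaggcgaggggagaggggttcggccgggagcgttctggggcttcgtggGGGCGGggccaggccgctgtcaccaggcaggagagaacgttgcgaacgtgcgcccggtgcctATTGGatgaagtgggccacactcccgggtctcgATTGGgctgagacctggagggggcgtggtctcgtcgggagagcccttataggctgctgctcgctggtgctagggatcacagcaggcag

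The Fkbp5 window held 3 GC boxes, which began at positions -244, -167 and -114 from the start site, and 1 CCAAT box at -208. The Ddit4 window held 1 GC box at -183 and 2 CCAAT boxes at -121 and -88. Of all 33469 RefSeq rat windows of this length, 30.47% held a GC box and 34.02% a CCAAT box. RefSeq gave 8 windows for 4 of the genes (1 each for Fkbp5 and Ddit4, and 3 each for Sgk1 and Tsc22d3); Cebpd had none in the table. None of the 8 windows held the palindrome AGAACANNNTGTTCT, by which the receptor's response element is known, or either arm of it (AGAACA or TGTTCT), or the E-box CACGTG. These motifs were present in 0.01195%, 17.52% and 5.593% of all windows. A TATA box (TATAAA) was present in 3 of the 8 windows, 2 of Sgk1 and 1 of Tsc22d3, against 8.055% of all windows. A match or its absence describes these letters in these windows and says nothing of the factors or of sites farther away.

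Fkbp5 encodes FKBP51, a co-chaperone that lowers the receptor's affinity for hormone, and is known as a sensitive feedback target of the receptor. In control rats at room temperature Fkbp5 ran from 25.8 CPM in library 3 to 49.2 CPM in library 4, with a median of 38.6. After cold, the control rats ran from 50.0 to 97.3 CPM, with a median of 54.7. All 7 control libraries in the cold were above the highest at room temperature, and library 3 stood far above the other 6. In knockout rats Fkbp5 ran from 39.9 to 56.6 CPM at room temperature (median 47.9) and from 38.3 to 87.4 CPM after cold (median 56.5). The knockout groups overlapped: 4 of 9 libraries in the cold were above the highest at room temperature, and the lowest of all 18 was also in the cold.

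Fkbp5 rose with cold in control rats, from 39.6 ± 7.80 to 60.2 ± 16.6 CPM (mean ± SD, n = 7 each). The fold change was 1.52 (95% interval 1.22 to 1.89), or 0.60 ± 0.16 on the log2 scale (± SE), with an adjusted p of 0.00777 by edgeR's quasi-likelihood test. Fkbp5 was the 1 gene of the 5 past the threshold of 0.05 in this comparison, in which 20.7% of the 11594 genes tested were called, 12.4% of them higher and 8.28% lower. Without library 3 of the cold control group the change was 0.44 (log2, adjusted p = 0.0351). The call was lost without the 4 libraries of lowest index, at 0.47 ± 0.17 (adjusted p = 0.0550), and with the index as a covariate, at 0.41 ± 0.20 (adjusted p = 0.283). The latter fit cannot separate the cold from the index, which did not overlap between these groups.

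In knockout rats Fkbp5 was 48.0 ± 5.65 CPM at room temperature and 59.2 ± 17.2 CPM after cold (n = 9 each). The log2 change was 0.30 ± 0.14, which did not pass the threshold (adjusted p = 0.166; fold interval 1.01 to 1.50, unadjusted). At room temperature Fkbp5 was 0.28 ± 0.15 (log2) above control in knockout rats (adjusted p = 0.366), and all 9 knockout libraries were above the control mean. After cold the genotypes differed by -0.02 ± 0.15 (adjusted p = 0.974). The change with cold differed by -0.30 ± 0.22 (log2) between knockout and control rats, and this interaction was not past the threshold (adjusted p = 0.586). The order of mean levels was control rats after cold, knockout rats after cold, knockout rats at room temperature and control rats at room temperature, and no neighbours in that order differed past the threshold.

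Ddit4 encodes REDD1, which restrains the growth kinase mTORC1 through the tuberous sclerosis complex; it is also known to respond to low oxygen, energy stress and DNA damage. In knockout rats at room temperature Ddit4 ran from 19.8 CPM in KO15 to 34.1 CPM in KO16, with a median of 26.6. After cold the knockout rats ran from 25.6 CPM in library 3 to 53.5 CPM in library 5, with a median of 44.9. Thus 8 of 9 libraries in the cold were above the highest at room temperature, and library 3 lay among the room-temperature values. In control rats Ddit4 ran from 22.6 to 38.0 CPM at room temperature (median 32.5) and from 29.4 to 54.9 CPM after cold (median 42.3). The control groups overlapped, with 5 of 7 libraries in the cold above the highest at room temperature.

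Ddit4 rose with cold in knockout rats, from 25.7 ± 4.63 to 43.1 ± 9.60 CPM (mean ± SD, n = 9 each). The fold change was 1.68 (95% interval 1.40 to 2.01), or 0.75 ± 0.13 on the log2 scale, with an adjusted p of 0.000144. Ddit4 was the 1 gene of the 5 called in this comparison, in which 13.8% of all genes tested were called, 7.49% higher and 6.28% lower. The call was made in every alternative fit tried and without any single library, with log2 changes of 0.69 to 0.82 when 1 library was left out. Without the 4 libraries of lowest index the change was 0.72 ± 0.14 (adjusted p = 0.000638), and with the index as a covariate it was 0.75 ± 0.14 (adjusted p = 0.000218).

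In control rats Ddit4 was 31.2 ± 5.92 CPM at room temperature and 41.2 ± 8.12 CPM after cold (n = 7 each). The log2 change of 0.40 ± 0.15 lay just outside the threshold (adjusted p = 0.0531). It passed the threshold in the fit without the 4 libraries of lowest index, at 0.51 (adjusted p = 0.0271). It also did so without control library 2 (adjusted p = 0.0493) or 3 (0.0428) at room temperature, without control library 7 after cold (0.0252) and without knockout library 3 after cold (0.0354). The change with cold differed by 0.35 ± 0.20 (log2) between knockout and control rats, which was not past the threshold (adjusted p = 0.478), so that a difference in response between the genotypes was not shown. At room temperature Ddit4 was -0.28 ± 0.14 (log2) in knockout against control rats (adjusted p = 0.310), with 8 of 9 knockout libraries below the control mean. After cold the difference was 0.07 ± 0.14 (adjusted p = 0.899), and the order of mean levels was knockout in the cold, control in the cold, control at room temperature and knockout at room temperature, with no neighbours past the threshold.

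**Figure D1:**
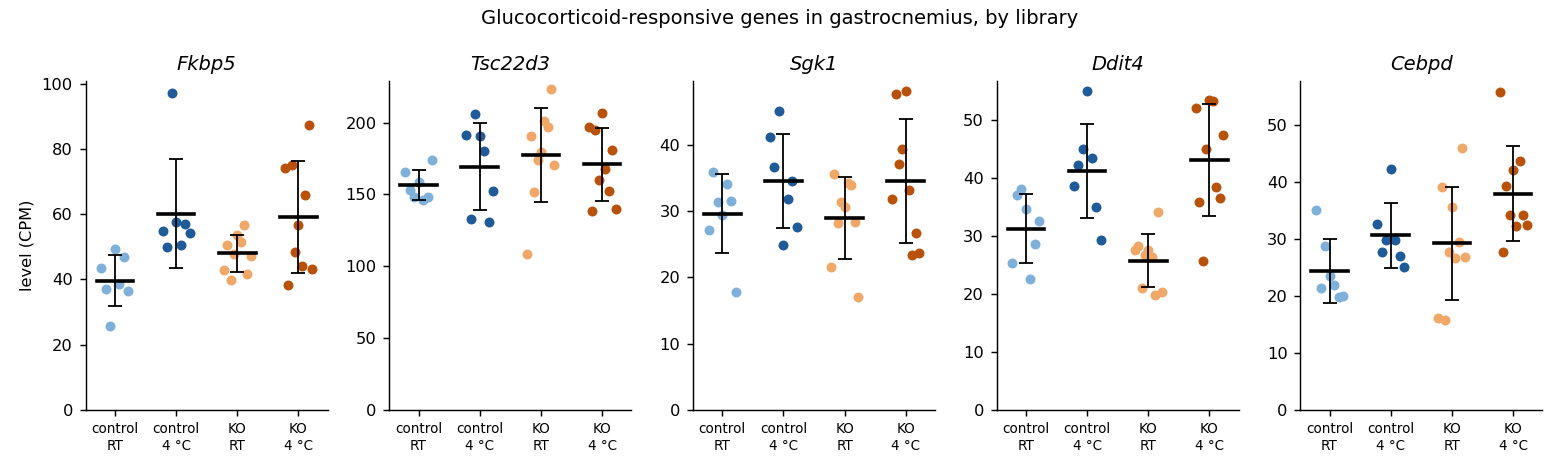
Level of each gene in CPM (vertical axes, starting at 0) in every library of the 4 groups; each point is a library, the long bar is the group mean and the whiskers are ± SD. The 7 Fkbp5 values of control rats after cold lie above all 7 at room temperature, and 8 of 9 Ddit4 values of knockout rats after cold lie above all 9 at room temperature.

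Cebpd encodes C/EBP delta, a leucine zipper transcription factor raised by glucocorticoids and by inflammatory signals. Cebpd ran from 19.9 to 35.1 CPM in control rats at room temperature (median 21.9) and from 25.2 to 42.4 CPM after cold (median 29.8). In knockout rats it ran from 15.8 CPM in KO10 to 46.1 CPM in KO16 at room temperature (median 27.8) and from 27.7 to 55.8 CPM after cold (median 34.3). The groups overlapped in both genotypes, and the values of knockout rats at room temperature were the most spread of any group of this gene. The change with cold was 0.33 ± 0.18 (log2) in control rats (adjusted p = 0.213) and 0.38 ± 0.16 in knockout rats (adjusted p = 0.123). All 7 control libraries in the cold were above the control mean at room temperature, as were 8 of 9 knockout libraries above theirs. Without KO16 the change in knockout rats was 0.47 and passed the threshold (adjusted p = 0.0344). In control rats the direction turned with the index as a covariate, to -0.23 (adjusted p = 0.575). Knockout against control differed by 0.27 ± 0.17 (log2) at room temperature (adjusted p = 0.463) and by 0.31 ± 0.17 after cold (adjusted p = 0.419).

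Tsc22d3 encodes GILZ, a leucine zipper protein that mediates part of the anti-inflammatory action of glucocorticoids. Tsc22d3 ran from 146 to 174 CPM in control rats at room temperature (median 153) and from 131 to 206 CPM after cold (median 180). In knockout rats it ran from 108 CPM in KO8 to 223 CPM in KO16 at room temperature (median 179) and from 139 to 206 CPM after cold (median 168). The values overlapped between all 4 groups, and control rats at room temperature were the least spread, with an SD of 10.5 CPM against 25.3 to 33.0 CPM in the other groups. The log2 change with cold was 0.12 ± 0.12 in control rats (adjusted p = 0.541; fold interval 0.920 to 1.28) and -0.05 ± 0.11 in knockout rats (adjusted p = 0.786; fold interval 0.834 to 1.11). Knockout against control differed by 0.18 ± 0.11 (log2) at room temperature (adjusted p = 0.430), where 6 of 9 knockout libraries were above the highest control, and by 0.01 ± 0.11 after cold (adjusted p = 0.979).

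Sgk1 encodes a kinase related to Akt that is raised by glucocorticoids and by osmotic stress and acts on ion transport and on muscle mass. Sgk1 ran from 17.7 to 35.9 CPM in control rats at room temperature (median 31.5) and from 25.0 to 45.1 CPM after cold (median 34.5). In knockout rats it ran from 17.0 CPM in KO17 to 35.6 CPM in KO9 at room temperature (median 30.7) and from 23.4 to 48.1 CPM after cold (median 33.2). The groups overlapped throughout. The log2 change with cold was 0.22 ± 0.17 in control rats (adjusted p = 0.380; fold interval 0.925 to 1.47) and 0.25 ± 0.15 in knockout rats (adjusted p = 0.290; fold interval 0.971 to 1.47). Knockout against control differed by -0.03 ± 0.16 (log2) at room temperature (adjusted p = 0.953) and by 0.00 ± 0.16 after cold (adjusted p = 0.999).

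No gene of the 5 was called for knockout against control at room temperature, where 2.61% of the genes tested were called (2.35% higher and 0.259% lower), or after cold, where 0.0518% were called (0.0345% higher and 0.0173% lower). None was called for the interaction, in which 0.0259% of the genes tested were called (0.00863% higher and 0.0173% lower). The 5 genes had unadjusted p-values of 0.0564 to 0.861 at room temperature, 0.0806 to 0.993 after cold and 0.0921 to 0.896 for the interaction, so none was under 0.05, and DESeq2 called none of them either. The median log2 change of the 5 genes with cold was 0.33 in control rats and 0.30 in knockout rats, against 0.03 and 0.01 over all genes tested.

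**Figure D2:**
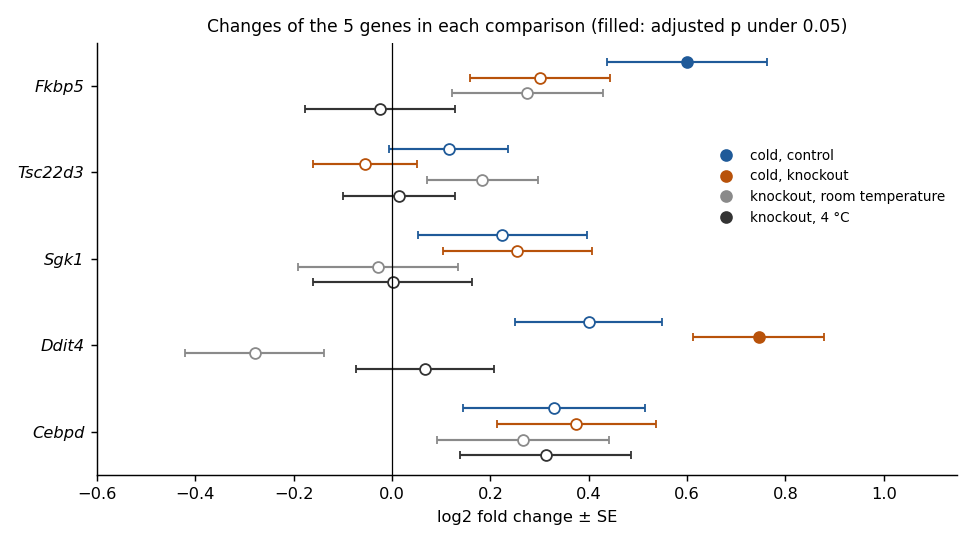
Log2 fold change ± SE (horizontal axis) of the 5 genes for the cold response of each genotype and for the genotype difference at each temperature. Filled points had an adjusted p under 0.05: Fkbp5 for cold in control rats (0.60) and Ddit4 for cold in knockout rats (0.75).

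Cold was also averaged over both genotypes in the same fit, a comparison added after the separate results were seen; it uses the same libraries and is not further evidence. In it 31.4% of the genes tested were called, 17.7% higher and 13.7% lower, and 3 of the 5 genes were among those higher. Ddit4 rose by 0.57 ± 0.10 (log2, adjusted p = 3.92e-05), Fkbp5 by 0.45 ± 0.11 (adjusted p = 0.00166) and Cebpd by 0.35 ± 0.12 (adjusted p = 0.0269). Sgk1 was at 0.24 ± 0.11 (adjusted p = 0.110) and Tsc22d3 at 0.03 ± 0.08 (adjusted p = 0.809). The averaged call of Cebpd was lost without the 4 libraries of lowest index (0.27, adjusted p = 0.0742), with 1 surrogate variable (0.12, adjusted p = 0.538) and with the index as a covariate (0.01, adjusted p = 0.974). It was lost, too, without control library 6 at room temperature (adjusted p = 0.0508) or control library 4 after cold (adjusted p = 0.0657). The averaged call of Fkbp5 was lost with the index as a covariate (0.33, adjusted p = 0.127).

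Related genes of the same families were read beside the members. Fkbp4 encodes FKBP52, the co-chaperone that competes with FKBP51 for the receptor complex and favours hormone binding. Fkbp4 was 88.2 ± 5.35 CPM in control rats at room temperature and 67.5 ± 9.09 CPM after cold, and 85.7 ± 11.9 and 66.9 ± 7.18 CPM in knockout rats. It fell in control rats (log2 change -0.39 ± 0.09, adjusted p = 0.00279) and in knockout rats (-0.36 ± 0.08, adjusted p = 0.00243). In control rats that call was lost with the index as a covariate (-0.24, adjusted p = 0.228).

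The log2 ratio of Fkbp5 to Fkbp4 within a library, a measure added after the values were seen, compares libraries without any scaling between them; as these are 3′ counts of different transcripts, its absolute level has no meaning. In control rats the ratio ran from -1.75 to -0.90 at room temperature (median -1.10) and from -0.52 to 0.52 after cold (median -0.20), with no overlap. The means differed by 0.99 (2-sided exact permutation test, p = 0.000583; 0.00408 after adjustment over 14 ratios and comparisons). In knockout rats the ratio ran from -1.41 to -0.53 (median -0.71) and from -0.78 to 0.59 (median -0.13), and the groups overlapped. There the means differed by 0.61 (adjusted exact permutation p = 0.0194). Without the 4 libraries of lowest index the differences were 0.83 (adjusted exact p = 0.0118) in control rats and 0.49 (adjusted exact p = 0.0606) in knockout rats.

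Ddit4l encodes REDD2, a relative of REDD1 that is abundant in skeletal muscle and also restrains mTORC1. Ddit4l ran from 342 to 600 CPM in control rats at room temperature (median 431) and from 202 to 422 CPM after cold (median 242). It fell in control rats by 0.73 ± 0.15 on the log2 scale (adjusted p = 0.000824). In knockout rats it was 402 ± 74.3 CPM at room temperature and 351 ± 63.7 CPM after cold, a log2 change of -0.20 ± 0.13 that did not pass the threshold (adjusted p = 0.354). The difference between these changes was 0.53 ± 0.20 (adjusted p = 0.241).

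The log2 ratio of Ddit4 to Ddit4l moved from -3.85 ± 0.53 to -2.71 ± 0.54 with cold in control rats (mean ± SD, n = 7 each), a difference of 1.14 (adjusted exact permutation p = 0.0163). In knockout rats it moved from -3.97 ± 0.39 to -3.04 ± 0.41 (n = 9 each), a difference of 0.92 (adjusted exact permutation p = 0.00408). The groups overlapped in both genotypes. Without the 4 libraries of lowest index the differences were 1.40 and 0.85 (adjusted exact p = 0.0177 and 0.0118).

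**Figure D3:**
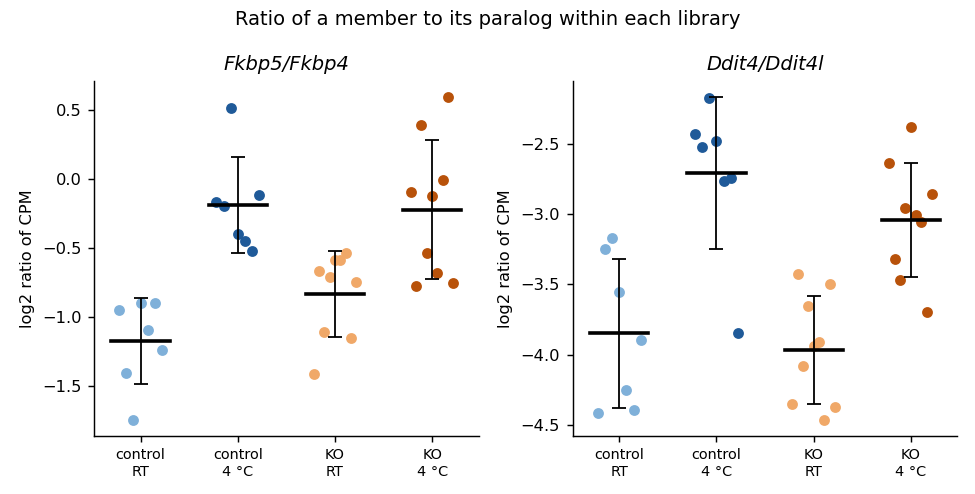
Log2 ratio of CPM (vertical axes) of Fkbp5 to Fkbp4 and of Ddit4 to Ddit4l in every library of the 4 groups; points are libraries, the long bar is the group mean and the whiskers are ± SD. The Fkbp5 to Fkbp4 ratios of control rats do not overlap between temperatures, from -1.75 to -0.90 at room temperature and from -0.52 to 0.52 after cold.

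Of the other relatives, Cebpg, Cebpa and Cebpb rose with cold in control rats, by 0.92 ± 0.25 (log2, adjusted p = 0.00961), 0.51 ± 0.15 (adjusted p = 0.0147) and 0.78 ± 0.27 (adjusted p = 0.0376). They encode further C/EBP factors, and none of them was called in knockout rats after cold. With the index as a covariate Cebpg was at -0.13 and Cebpb at 0.00 in control rats, while Cebpa lost its call in the fit of the compared groups alone (0.48, adjusted p = 0.0548) and without control library 6 after cold (0.40, adjusted p = 0.0615). The call of Cebpb ended in 9 of 32 fits that left out 1 library, with an adjusted p of up to 0.0995. At room temperature Cebpg was 1.05 ± 0.24 (log2) above control in knockout rats (adjusted p = 0.0174). With the index as a covariate it was 0.22 (adjusted p = 0.555), a fit that cannot cleanly separate the genotype from the index there. The room-temperature call of Cebpg was lost without control library 2 (adjusted p = 0.0535) or 3 (adjusted p = 0.0511) at room temperature. Of the 7 relatives tested, 3 rose and 2 fell in control rats (12.4% and 8.28% of all genes tested) and 1 fell in knockout rats (6.28% of all); Tsc22d1 and Tsc22d2 were called in neither. The ratio of Cebpd to Cebpg fell by 0.61 (log2) in control rats (adjusted exact permutation p = 0.0194; 0.0606 without the 4 libraries). It was 0.44 higher after cold in knockout rats (adjusted exact permutation p = 0.0661), and 0.63 higher without the 4 libraries (0.0118). The other 8 ratios tested, of Tsc22d3 to Tsc22d1 and Tsc22d2 and of Cebpd to Cebpa and Cebpb, were not past the threshold in either genotype.

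Of 16 genes tested from a list of 20 that bring hormone to the receptor or carry it, 1 rose and 1 fell with cold in control rats, where 12.4% of all genes tested were higher and 8.28% lower. In knockout rats none rose and 4 fell, where 7.49% of all genes were higher and 6.28% lower. Hsd11b1, whose enzyme regenerates active glucocorticoid inside cells, was 4.28 ± 1.27 CPM in control rats at room temperature and 7.29 ± 1.37 CPM after cold. It rose by 0.77 ± 0.20 (log2, adjusted p = 0.00509), and lost the call with 1 surrogate variable (0.56, adjusted p = 0.0616) or the index as a covariate (0.50, adjusted p = 0.268). In knockout rats Hsd11b1 was 5.05 ± 1.35 and 7.13 ± 1.89 CPM, a log2 change of 0.49 ± 0.17 just outside the threshold (adjusted p = 0.0540). Fkbp4 was the gene that fell in control rats. In knockout rats those that fell included Fkbp4, Bag1, a co-chaperone (-0.26 ± 0.08, adjusted p = 0.0176), and Hspa8, a chaperone (-0.47 ± 0.16, adjusted p = 0.0377; 0.0594 in the fit of the compared groups alone). The call of Hspa8 ended in 9 of 32 fits that left out 1 library, with an adjusted p of up to 0.0685. Control rats had Bag1 at -0.18 ± 0.09 (adjusted p = 0.137) and Hspa8 at 0.18 ± 0.18 (adjusted p = 0.516). No gene of the list was called between the genotypes at either temperature, where 2.61% (room temperature) and 0.0518% (after cold) of all genes tested were.

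The signalling genes next to Ddit4 and Sgk1 gave 5 lower and none higher of 19 tested with cold in control rats, beside 8.28% and 12.4% of all genes tested. In knockout rats 3 were lower and 2 higher, beside 6.28% and 7.49%. Tsc2, through which REDD1 acts on mTORC1, fell in control rats (log2 change -0.42 ± 0.13, adjusted p = 0.0197) and in knockout rats (-0.38 ± 0.12, adjusted p = 0.0211). Its partner Tsc1 fell as well, by 0.84 ± 0.22 in control rats (adjusted p = 0.00590) and by 0.61 ± 0.20 in knockout rats (adjusted p = 0.0344). Eif4ebp1 and Deptor, a target and an inhibitor of mTORC1, fell in control rats by 0.36 ± 0.11 (adjusted p = 0.0187) and 0.61 ± 0.20 (adjusted p = 0.0244). They were at -0.21 ± 0.10 (adjusted p = 0.154) and -0.45 ± 0.17 (adjusted p = 0.0780) in knockout rats. In knockout rats Rps6kb1, the gene of the S6 kinase, fell by 0.51 ± 0.13 (adjusted p = 0.00610). There Ndrg1, a known substrate of SGK1, rose by 0.42 ± 0.11 (adjusted p = 0.00906) and Ulk1, a starter of autophagy that mTORC1 holds back, by 0.57 ± 0.18 (adjusted p = 0.0283). Control rats had Rps6kb1 at -0.32 ± 0.15 (adjusted p = 0.112) and Ndrg1 at 0.24 ± 0.13 (adjusted p = 0.187). Ulk1 was at 0.41 ± 0.20 in control rats (adjusted p = 0.144). Without the 4 libraries of lowest index, 3 genes were lower in control rats and 1 in knockout rats, and with the index as a covariate none and 1. Calls over all genes in control rats also became fewer with the index, as given in the closing section. These counts are therefore not read as a result about the list. Tsc1, Tsc2 and Ulk1 lost their calls in knockout rats in both fits. In control rats, leaving out library 2 at room temperature ended the calls of Tsc2 (-0.35, adjusted p = 0.0660) and Deptor (-0.46, adjusted p = 0.102), and leaving out library 2 after cold that of Eif4ebp1 (-0.30, adjusted p = 0.0524). In knockout rats 5 of 32 such fits ended the call of Tsc1 and 5 that of Ulk1, with adjusted p up to 0.0889 and 0.0819. No gene of this list was called between the genotypes at either temperature or for the interaction. Of all genes tested 2.61% were called at room temperature, 0.0518% after cold and 0.0259% for the interaction.

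A list of 36 further genes known as glucocorticoid targets, chosen with earlier results of these data known, had 31 tested. With cold 14 were higher and 3 lower in control rats, against 12.4% and 8.28% of all genes tested. In knockout rats 8 were higher and 1 lower, against 7.49% and 6.28%. The median log2 change of the 31 was 0.37 in control rats and 0.24 in knockout rats, beside 0.03 and 0.01 over all genes. In control rats 9 were higher with 1 surrogate variable and 2 with the index as a covariate. Calls over all genes also became fewer in both of these fits, as given in the closing section. These counts are therefore not read as a result about the list.

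Gadd45a, a growth arrest gene linked to muscle atrophy, was 14.5 ± 1.50 CPM in control rats at room temperature and 33.8 ± 10.4 CPM after cold, and 16.2 ± 3.48 and 32.6 ± 6.43 CPM in knockout rats. It rose by 1.22 ± 0.16 (log2, adjusted p = 6.65e-06) and by 1.003 ± 0.14 (adjusted p = 6.13e-06), and the groups did not overlap in either genotype. Cdkn1a, the cell cycle inhibitor p21, ran from 5.16 to 23.2 CPM in knockout rats at room temperature (median 15.8) and from 34.4 to 119 CPM after cold (median 92.0). It rose by 2.53 ± 0.32 (log2, adjusted p = 2.43e-06) there, and by 2.04 ± 0.36 in control rats (adjusted p = 0.000250).

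Klf15, a transcription factor that drives amino acid breakdown in muscle under glucocorticoids, ran from 5.51 to 14.1 CPM in control rats at room temperature (median 10.6) and from 15.3 to 33.2 CPM after cold (median 26.8). It rose by 1.30 ± 0.22 (log2, adjusted p = 0.000173; 0.56 and adjusted p = 0.101 with the index as a covariate). In knockout rats Klf15 rose by 0.84 ± 0.19 (adjusted p = 0.00294). Anxa1, an anti-inflammatory phospholipid-binding protein, rose in control rats from 5.71 ± 1.98 to 15.9 ± 2.85 CPM, by 1.48 ± 0.21 (log2, adjusted p = 1.35e-05). In knockout rats its change was 0.51 ± 0.18 (adjusted p = 0.0576), and the difference between the changes, -0.97 ± 0.28, was not past the threshold (adjusted p = 0.130). Acsl1, which activates fatty acids, rose by 0.59 ± 0.10 (adjusted p = 0.000129) and 0.58 ± 0.09 (adjusted p = 2.03e-05) in the 2 genotypes. Nfkbia, the inhibitor of NF-kappaB, rose in knockout rats by 0.55 ± 0.09 (adjusted p = 2.15e-05). It rose in control rats as well, by 0.39 ± 0.10 (adjusted p = 0.00414).

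The 3 lower in control rats were Fbxo32, the ubiquitin ligase atrogin-1 (log2 change -0.39 ± 0.14, adjusted p = 0.0372), Pdk4, a kinase that shuts off pyruvate entry (-0.85 ± 0.30, adjusted p = 0.0405), and Slc38a2, an amino acid transporter (-0.28 ± 0.10, adjusted p = 0.0468). Leaving out 1 library at a time ended these calls in 6, 9 and 13 of 32 fits, with adjusted p up to 0.104, 0.117 and 0.0958. In knockout rats Fbxo32 was at -0.16 ± 0.12 (adjusted p = 0.401) and Pdk4 at -0.02 ± 0.27 (adjusted p = 0.967). Slc38a2 was at -0.08 ± 0.09 there (adjusted p = 0.630). In knockout rats Pik3r1, a regulatory subunit of PI3 kinase, fell by 0.45 ± 0.11 (adjusted p = 0.00323). Its change in control rats was -0.05 ± 0.12 (adjusted p = 0.800). None of the 31 targets was called for the interaction, in which 0.0259% of all genes tested were.

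**Figure D4:**
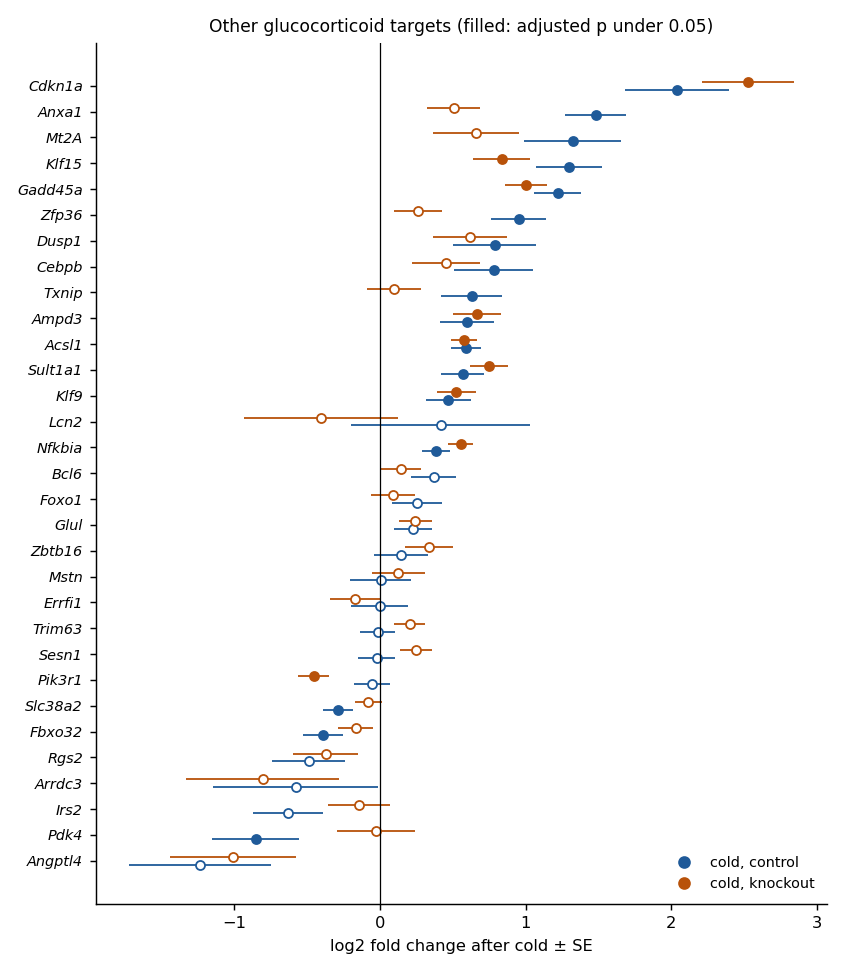
Log2 fold change with cold ± SE (horizontal axis) of the 31 further glucocorticoid targets tested, in control and in knockout rats; filled points had an adjusted p under 0.05. In control rats 14 points to the right of 0 and 3 to the left are filled, and in knockout rats 8 and 1.

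Between the genotypes at room temperature 2 of these 31 genes were higher in knockout rats and none lower, and after cold none was called. Of all genes tested 2.35% were higher and 0.259% lower at room temperature, and 0.0518% were called after cold. Klf15 was 10.4 ± 3.39 CPM in control and 18.3 ± 6.19 CPM in knockout rats, a log2 difference of 0.81 ± 0.21 (adjusted p = 0.0347). Anxa1 was 5.71 ± 1.98 and 9.47 ± 2.97 CPM, a difference of 0.74 ± 0.20 (adjusted p = 0.0377). Both calls were lost in the fit of the compared groups alone (adjusted p = 0.142 and 0.173) and when 1 library was left out, in 9 and 11 of 32 fits. They were lost, too, with the index as a covariate (adjusted p = 0.507 and 0.686), a fit that cannot cleanly separate the genotype from the index here.

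Because glucocorticoid secretion follows the clock and the labels state no time of day, clock genes were read beside the members. Of 15 tested, 7 were higher and 2 lower with cold in control rats, where 12.4% and 8.28% of all genes tested were, and 4 higher and 1 lower in knockout rats, where 7.49% and 6.28% were. Dbp, a clock output factor, was 17.5 ± 4.24 and 67.3 ± 18.3 CPM in control rats and 16.4 ± 3.68 and 42.4 ± 28.4 CPM in knockout rats, at room temperature and after cold. It rose by 1.95 ± 0.30 (log2, adjusted p = 5.85e-05) and by 1.36 ± 0.26 (adjusted p = 0.000510). Per2, a clock gene that glucocorticoids also raise, rose in control rats by 0.95 ± 0.22 (adjusted p = 0.00214; 0.109 with the index as a covariate), and Nfil3, a repressor opposed to Dbp, fell by 1.22 ± 0.28 (adjusted p = 0.00205) and 0.93 ± 0.24 (adjusted p = 0.00680). In knockout rats Per2 was at 0.24 ± 0.19 (adjusted p = 0.448), and its interaction was not past the threshold (adjusted p = 0.280). Clock was higher in knockout than control rats at room temperature (0.41 ± 0.12, adjusted p = 0.0471; 0.183 in the fit of the compared groups alone), a call that ended in 27 of 32 fits that left out 1 library. The part of sampling time in the members' levels was not tested.

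Markers of other cell types moved with the cold as well, to be read beside the 12.4% of all genes tested that were higher and 8.28% lower in control rats, and 7.49% and 6.28% in knockout rats. Macrophage markers, all 8 present, summed to 111 to 175 CPM in control rats at room temperature, 152 to 255 after cold, 90.1 to 121 in knockout rats at room temperature and 130 to 238 after cold; 4 rose in control and 5 in knockout rats, and none fell. Adipocyte markers, all 7 present, summed to 151 to 194, 244 to 407, 138 to 618 and 267 to 437 CPM in the same order; 4 rose in control and 1 in knockout rats. Of 6 smooth muscle markers tested 3 were higher in control rats and none in knockout rats. The erythroid markers were 3 symbols under 4 gene identifiers, as Hba-a2 had 2. All 4 identifiers were higher in control rats and none in knockout rats. Of 7 endothelial markers tested none was higher in control rats and 1 in knockout rats. Of 6 fibroblast markers tested 2 were higher in control rats and 1 lower in knockout rats. The 2 lymphocyte markers tested gave none. Of the 10 muscle fibre markers 5 fell in control and 4 in knockout rats. The part of these cells in the members' changes was not tested.

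Among libraries of the same group the 5 genes did not vary as one. The deviations of log2 CPM from the group mean were correlated over all 32 libraries for each of 10 pairs; these values share library, depth and scaling. Cebpd and Tsc22d3 varied together, with a Pearson r of 0.67 (adjusted permutation p = 0.0011 over the 10 pairs) and a Spearman rho of 0.66 (adjusted permutation p = 0.001). The r was 0.59 without the 2 libraries farthest from the median of Tsc22d3, KO8 and control library 6 after cold, and 0.54 without the 4 libraries of lowest index (adjusted permutation p = 0.0042 and 0.0238). Within the groups it was 0.13 in control rats at room temperature, 0.61 in control rats after cold, 0.83 in knockout rats at room temperature and 0.65 in knockout rats after cold.

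Fkbp5 and Tsc22d3 had an r of 0.46 (adjusted permutation p = 0.0276) and a rho of 0.49 (adjusted permutation p = 0.0324). Without the 2 libraries farthest from the median of Fkbp5, library 3 of control rats and library 8 of knockout rats after cold, r was 0.40 and not past the threshold (adjusted permutation p = 0.069). Without the 4 libraries it was 0.47 (adjusted permutation p = 0.159). No other pair passed the threshold; Fkbp5 and Ddit4, the genes called with cold, had an r of -0.21 (adjusted permutation p = 0.434). The index of transcripts low in KO10 had a pooled r within groups of 0.66 with Cebpd, 0.47 with Tsc22d3, 0.28 with Fkbp5, -0.05 with Sgk1 and -0.02 with Ddit4. The groups differed in this r. Values follow for control rats at room temperature and after cold, then knockout rats likewise. They were 0.37, 0.65, 0.81 and 0.02 for Cebpd, and 0.60, 0.12, 0.75 and -0.28 for Tsc22d3. Fkbp5 had 0.51, -0.27, 0.63 and 0.13, Sgk1 -0.63, -0.16, 0.26 and -0.07, and Ddit4 -0.43, 0.38, 0.25 and -0.40.

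**Figure D5:**
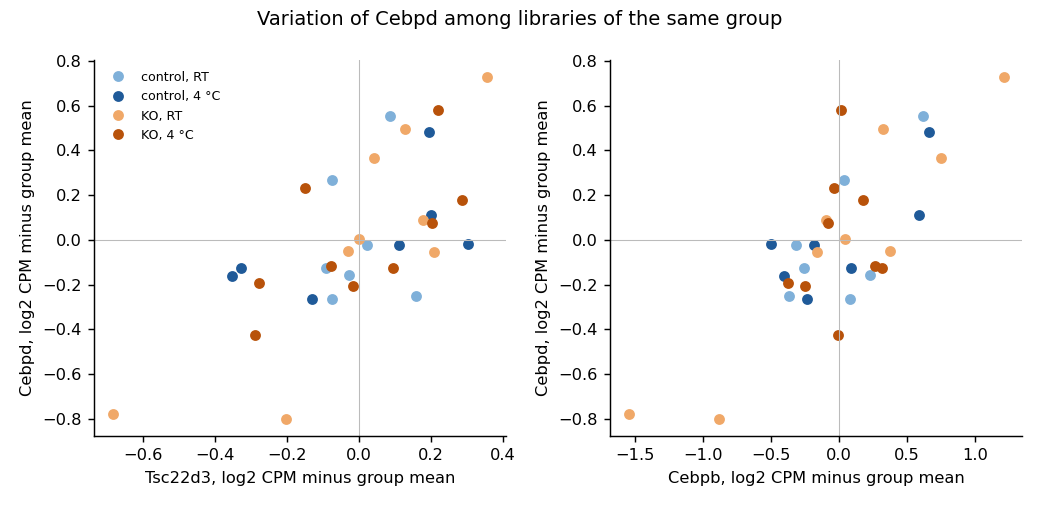
Deviation of Cebpd from its group mean (vertical axes, log2 CPM) against that of Tsc22d3 (left) and of Cebpb (right) in the 32 libraries, coloured by group. Points rise from lower left to upper right, with r of 0.67 and 0.77, and 2 knockout libraries at room temperature lie lowest in both.

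The genes most like each member were taken by Pearson r of log2 CPM over the 32 libraries among 6951 genes of at least 5 CPM on average; the r within groups follows each in brackets. For Fkbp5 they were Zfp638 at 0.73 (0.54), Ahcyl1 at 0.73 (0.71) and Cyp4b1 at 0.72 (0.55). For Ddit4 they were Tob2 at 0.73 (0.45), Nfkbia at 0.72 (0.39) and Enho at 0.71 (0.32). Cebpd had the closest neighbours of the 5, namely Cebpb at 0.84 (0.77), Hyal2 at 0.82 (0.78) and Eci2 at 0.81 (0.77). For Tsc22d3 they were Gga1 at 0.75 (0.73), Srsf7 at 0.73 (0.74) and Ublcp1 at 0.72 (0.72), and for Sgk1 Col4a1 at 0.65 (0.61), Rab31 at 0.64 (0.61) and Fam129b at 0.64 (0.60). Fkbp5 and Ddit4 shared none of these neighbours. These r values are descriptions, chosen as the highest of many.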

How the data were processed

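RNA of 32 gastrocnemius samples was sequenced as Lexogen QuantSeq libraries with 50 bp forward reads, per the labels. The authors deposited raw counts for Ensembl genes. Their second deposited table holds normalised signal, equal to the raw counts over a size factor (0.523 to 2.06 across libraries). Per the submitters' processing notes, R 3.4.3, DESeq2 1.18.1 and Rnor_6.0 were used; aligner and counter were not given in the sources used here. All deposited counts were even numbers (0 odd counts), so each read may have been entered in duplicate; counts divided by 2 were an alternative. No column was left unused (0). No 2 libraries of a group agreed within sampling noise (smallest chi-square per degree of freedom 5.70).

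The members were found by symbol in the deposited table (symbols for 11693 of 12901 genes). The analysis of counts used edgeR 4.0.16 and limma 3.58.1 under R 4.3.3. Genes passing filterByExpr (minimum count 10, smallest group 7) numbered 11594, and 1307 were not tested. All 32 libraries were fitted together with TMM factors and 1 mean per group (glmQLFit, robust), with the quasi-likelihood F test and Benjamini-Hochberg adjustment over all genes tested, at 0.05. SEs are the log2 change over the square root of F, and 95% fold intervals come from them with a normal quantile. The intervals are therefore slightly narrower than the F test implies. For Ddit4 in knockout against control rats at room temperature the interval, 0.680 to 0.999, excludes 1. The unadjusted p of the quasi-likelihood F test there was 0.0564. Alternatives used DESeq2 1.42.0, sva 3.50.0, other scaling and filters, the compared groups alone, replicate blocks in control and in knockout rats and each library left out in turn. Ratios and correlations were tested with permutations in scipy 1.17.1 (100000 for correlations, all regroupings for ratios). The statistics were tested on simulated data. Nothing in the labels says which samples came from the same animals, so p-values measure the spread between these samples. Where genes overlap or share near-identical copies, the counts of either cannot be told apart.

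The members and all gene lists (receptor complex and hormone access, other glucocorticoid targets, signalling next to Ddit4 and Sgk1, paralogs, circadian clock, cell type markers) were chosen with earlier results of these data known. Named from each list were up to 4 genes per direction and comparison with the smallest adjusted p under 0.05, the members always, and for likeness 3 genes per member. Columns of knockout libraries at room temperature carry the title numbers and are named by them. Promoter windows came from RefSeq (GRCr8); they were not joined to coordinates of the deposited table. One gene that this rule names is not reported here.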

Additional observations from a re-analysis of the deposited data

Results flagged for a closer look

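In control rats after cold, library 3 had an Fkbp5 level of 97.3 CPM, far above the next library of its group at 57.5 CPM; the gap was 0.842 of the group's whole range. The 5 genes gave 20 groups of samples for this comparison of a sample with its group, and chance marks about 1 group in 20. Without that library Fkbp5 in control rats was 0.44 (log2) higher after cold, with an adjusted p of 0.0351.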

How the results depend on the processing

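Of 240 alternative values for the 5 genes (leaving out single libraries aside), 215 kept direction and side of the threshold, 17 reversed, 6 lost the call and 2 gained it; the Fkbp5, Ddit4 and Cebpd calls that moved are given above, and the cause was not tested. The reversed values of the 5 genes were of uncalled changes (log2), among them the 0.33 of Cebpd with cold in control rats. Tsc22d3 with cold in control rats was -0.0640 with 1 surrogate variable and -0.12 with the index as a covariate, and averaged over genotypes -0.0385 without the 4 libraries, -0.12 with 1 surrogate variable and -0.12 with the index. Cebpd with the index was -0.23 with cold in control rats and -0.14 for knockout against control at room temperature. Sgk1 was 0.0877 for knockout at room temperature without the 4 libraries; after cold, Sgk1 was -0.0140 with RLE factors, -0.0139 with DESeq2, -0.0142 with the compared groups alone, -0.0132 with counts divided by 2 and -0.00538 without the 4 libraries, and Tsc22d3 was -0.00116 with the compared groups alone. For the interaction Sgk1 was -0.0931 and Cebpd -0.13 without the 4 libraries, and Tsc22d3 0.00401 with the index. With the index Deptor was 0.000259, Cebpg -0.13 and Cebpb -0.00366 with cold in control rats. In the main fit these genes were called, at -0.61, 0.92 and 0.78. The correlations of Fkbp5 with Sgk1 (-0.00350) and of Sgk1 with Ddit4 (-0.0203) turned without the 2 farthest libraries, that of Sgk1 with Cebpd (-0.0305) without the 4, and the Cebpd to Cebpa ratio in knockout rats was then -0.0111. The number of pairs past the threshold fell from 2 to 1 in both settings.

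The number of the 5 genes called with cold in control rats was 1, 0 with the index and 2 with the replicate block, in which Ddit4 passed (0.38, adjusted p = 0.0498); the block changed no other call of the 5. Control libraries of the same number did not deviate together (r -0.22 to 0.19 over 7 pairs, 1 of 7 correlating best with its own number). In knockout rats the columns at room temperature are numbered by title, and 7 could be matched through the sample descriptions to a library of the same number after cold; same-numbered libraries did not all deviate together (r -0.00186 to 0.15, 2 of 7 correlating best with their own number). A replicate block on these 7 pairs, added after the data were seen, called 1 of the 5 genes, Ddit4 (0.75, adjusted p = 0.00199), as before, and 1198 genes in all against 1596; Hspa8 (adjusted p = 0.0636), Tsc2 (0.151) and Tsc1 (0.227) were not called in it, with 4 libraries fewer. Averaged over genotypes, 1 of the 5 was called with the index against 3. Leaving out single libraries gave 1 to 2 genes called in control and in knockout rats, and ranges of -0.14 to 0.0330 for Sgk1 at room temperature; after cold, -0.11 to 0.13 for Fkbp5, -0.0428 to 0.0679 for Tsc22d3, -0.0774 to 0.0771 for Sgk1 and -0.0306 to 0.14 for Ddit4; for the interaction, -0.0414 to 0.12 for Sgk1 and -0.0594 to 0.15 for Cebpd; and -0.0112 to 0.0560 for Tsc22d3 averaged.

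All genes called for cold in control rats numbered 2399, and 1335 with 1 surrogate variable and 383 with the index; averaged, 3643, and 2041 and 1392. For knockout at room temperature they numbered 303, and 573 with DESeq2, 0 with the compared groups alone, 708 without the 4 libraries and 1 with the index. After cold they numbered 6, and 121 with RLE factors, 432 with DESeq2, 3 with no filter, 0 with the compared groups alone, 10 with 1 surrogate variable, 81 with counts divided by 2 and 231 with the index. For the interaction they numbered 3, and 106 with DESeq2, 1 with no filter, 288 without the 4 libraries, 55 with 1 surrogate variable and 1 with the index. Leaving out single libraries gave 80 to 792, 0 to 556 and 0 to 226 for the last 3. At 112 to 4460 counts per library for the 5 genes, counting error is below the spread between libraries.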
